A study of Mus musculus with 38 samples.

Results

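The 39 Hox genes of the HoxA, HoxB, HoxC and HoxD clusters were described in brown adipose tissue of C57BL/6J mice, across 38 arrays of 1 colour each. A gene was a member if its name on the array was Hoxa, Hoxb, Hoxc or Hoxd followed by a number alone, which took 39 of 29411 gene names (51 probes, of which the probe with the highest mean stands for each gene). All mice were weaned at 3 to 4 weeks of age and then fed 1 of 5 diets. LFC mice received a low fat control diet, HFC mice a high fat diet with increased sucrose, and the HF5, HF20 and HF75 mice this high fat diet with 5, 20 or 75 micrograms of the herbal formulation Kal-1. LFC and HFC had 10 arrays each (days 6, 10 and 14, and weeks 0, 3, 6, 9, 12, 15 and 18), and each dose had 6 arrays (weeks 3 to 18). A group was sampled with a single array at each of these times, so different times stand in for replicates. The main fits hold the time point as a block, so change with age that the groups share is taken out. Their p values measure how far group differences vary between times, which also holds technical spread. In the trend over days, which has no such block, p values measure the spread of arrays around the fitted line. The labels name neither the brown depot that was taken nor the number of animals behind an array, and no sex. White fat was not analysed here, so the Hox genes cannot be compared between depots.

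Hox genes encode transcription factors with a homeodomain, and in the embryo they set position along the body from head to tail. In each cluster the low numbers act in the hindbrain and neck and the high numbers in the lumbar region, the tail and the ends of the limbs, and genes of the same number in different clusters form a paralogue group. Adult fat keeps part of this pattern. The main brown depots lie in the neck and between the shoulder blades, whereas the white depots lie lower in the body, and Hoxc9 and Hoxc10 are often used as markers of white fat.

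Levels are given as the log2 of the background-corrected signal minus the 75th percentile of the same array, so that 0 is the brightness of the array's 75th percentile. Levels of different probes cannot be set against each other, and for this reason genes were compared with each other only by the number of arrays on which the scanner called them well above background. The 75th percentile itself ran from 35.1 to 1209 intensity units (median 183). In 11 arrays it was over 600, and these are called bright here: LFC at Weeks 0, 3, 9 and 12, HFC at Day 10 and Week 3, HF20 at Weeks 3, 6, 12 and 15, and the HF75 array of Week 3. The other 27 are called dim, and theirs ran from 35.1 to 430. This boundary was set after the arrays had been seen.

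The array labelled HF75 Week 3 went against its tissue label. Ucp1, the uncoupling protein of brown fat, was at -3.07 on it and at 3.38 to 8.57 on the other 37 arrays. The other brown fat genes Cidea (-1.78) and Cox7a1 (-0.33) were also lowest there, and Zic1, a marker of the brown depot, was not well above background (-8.24, against -3.59 to 0.71 elsewhere). Of the other 2 markers of the brown depot, Lhx8 was also not well above background (-8.23), whereas Epsti1 (-0.68) was the third highest of 38. All 5 mesothelium markers, which belong to visceral fat, were well above background on this array, against 0 to 2 of 5 on each other array. The mean level of the mesothelium list was -0.88 there and -7.91 to -3.68 elsewhere. That of the 8 brown adipocyte genes was -2.13 there (7 of 8 well above background) and 1.03 to 4.68 elsewhere. The fibroblast or progenitor list was also above its range elsewhere (3.42, against -0.79 to 2.77). Of 6 subcutaneous white or beige markers 4 were well above background, against 0 to 4 on each other array. For 5 male reproductive tract markers these counts were 3 and 0 to 3. The tests of HF75 and of the differences among doses were therefore also run without the HF75 array of Week 3.

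In brown fat most Hox genes of the neck and trunk groups were detected on most arrays, and those of the lumbar and tail groups on few. Of the 39 genes, 21 (53.8%) were well above background on at least 19 of 38 arrays, against 59.8% of all gene names. In paralogue groups 4 to 8 this held for 13 of 15 genes, and 9 of them were detected on all 38 arrays. In groups 1 to 3 it held for 5 of 8 genes, in group 9 for 3 of 4, and in groups 10 to 13 for 0 of 12. All 38 arrays detected 10 Hox genes (25.6%, against 36.4% of all gene names), and 0 arrays detected Hoxb1 or Hoxc12 (2 genes, 5.13%, against 5.19%). At most 3 arrays detected 9 of the 39 (23.1%, against 20.5%). No Hox probe was saturated (0 of 39).

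**Figure D1:**
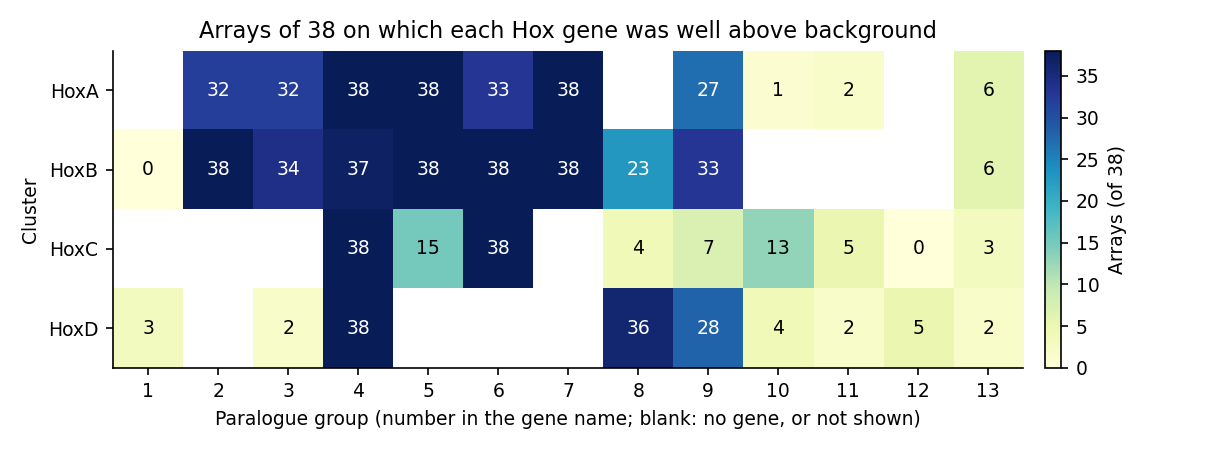
Number of arrays, of 38, on which each Hox gene was well above background, with the cluster in rows and the paralogue group in columns; blank cells hold no gene or are not shown. Groups 4 to 7 of HoxA and HoxB were at 33 to 38 arrays, and no gene of groups 10 to 13 was above 13 arrays.

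The clusters differed in how far the detected genes reached. In HoxA, the genes from Hoxa2 to Hoxa9 were detected on 27 to 38 arrays, and Hoxa10, Hoxa11 and Hoxa13 on 1, 2 and 6. HoxB was detected from Hoxb2 to Hoxb9 (23 to 38 arrays), with Hoxb13, known for its role in the tail and the prostate, on 6 arrays. In HoxC the counts over all arrays had a gap: Hoxc4 and Hoxc6 were above background on 38 arrays, and Hoxc5 between them on 15. Hoxc8 was on 4 arrays, Hoxc9 on 7 and Hoxc10 on 13. The gap at Hoxc5 lay on the dim arrays. With HF75 at Week 3 set aside, Hoxc5 was detected on 10 of 10 bright arrays and on 4 of 27 dim ones. For Hoxc10 these counts were 0 of 10 and 12 of 27. The part of brightness in these counts was not tested. In HoxD, Hoxd4, Hoxd8 and Hoxd9 were on 38, 36 and 28 arrays, and the other 6 genes on 2 to 5. By cluster, 8 of 11 HoxA genes, 8 of 10 HoxB genes, 2 of 9 HoxC genes and 3 of 9 HoxD genes were detected on at least 19 arrays.

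A low count of arrays can lie with a probe as well as with a gene. In 12 genes a further probe was present, and it was detected less often than the probe used for Hoxa4 (21 against 38 arrays), Hoxb9 (12 against 33) and Hoxb8 (1 against 23). The reverse was seen for Hoxa10 (3 against 1) and Hoxd3 (4 against 2), which were rarely detected by either probe. It was also seen for Hoxb3 (35 against 34), which both probes detected on most arrays. With any probe of a gene counted, the number on at least 19 arrays stayed at 21 (60.1% of gene names). With the looser flag for a signal that is positive and significant it was 26 (77.6%), and with at least 90% of arrays asked for it was 12 (44.2%). Over the arrays whose 75th percentile was below the median, 19 Hox genes were on at least 50% of them (53.1%), and over the brighter ones 22 (66.4%).

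Each array detected between 11 and 32 of the 39 Hox genes, with a median of 22. The share of all gene names detected ran from 41.2% to 81.1%, and its extremes fell on the same arrays: HF5 at Week 18 had 11 Hox genes and 41.2% of gene names, and HFC at Week 12 had 32 Hox genes and 81.1%. In groups 4 to 8 each array had 9 to 15 of the 15 genes, in groups 1 to 3 it had 1 to 7 of 8, and in groups 10 to 13 it had 0 to 7 of 12.

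**Figure D2:**
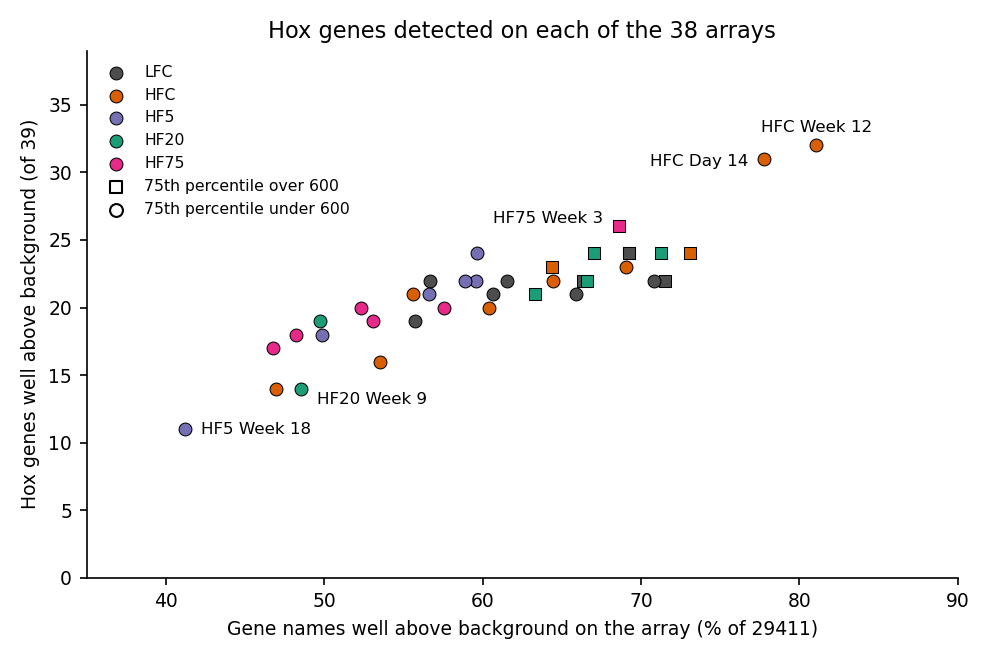
Hox genes well above background (of 39) against the share of all 29411 gene names well above background, 1 point per array, coloured by group, with squares for the 11 arrays with a 75th percentile over 600. HFC at Week 12 (32 genes) and Day 14 (31 genes) stand at the upper right, HF5 at Week 18 (11 genes) at the lower left, and HF75 at Week 3 had 26.

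An array was taken to depart when it showed a Hox gene that at most 10% of arrays had, or lacked one that at least 90% had. This held for 10 arrays: 8 showed a rare Hox gene and 2 lacked a common one. HFC at Day 14 showed Hoxa11, Hoxd1 and Hoxd13, and HFC at Week 12 showed Hoxa11, Hoxd1, Hoxd3 and Hoxd13. Hoxd13 acts in the digits and the genital region, whereas Hoxd1 belongs to the first paralogue group. Both arrays had 7 of the 12 genes of groups 10 to 13, and every other array had at most 3.

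On both arrays other rare genes were detected too. The HFC array of Day 14 detected 77.8% of all gene names and showed 33.1% of the 4511 gene names that at most 10% of arrays had. The HFC array of Week 12 detected 81.1% and showed 60.3% of the rare gene names. What set these arrays apart was not tested. The other 6 arrays with rare genes were HFC at Day 10 (Hoxc13, a hair and nail gene), HFC at Week 3 (Hoxc13), LFC at Week 3 (Hoxa10), HF20 at Week 3 (Hoxc13 and Hoxd3), HF5 at Week 12 (Hoxd11) and HFC at Week 18 (Hoxd1 and Hoxd11). They showed 1 or 2 rare Hox genes each, and 2.17% to 12.3% of all rare gene names. The 2 arrays that lacked common genes were dim: HF20 at Week 9 lacked Hoxd8, and HF5 at Week 18 lacked Hoxb4 and Hoxd8, beside 11.4% of all common gene names.

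The HF75 array of Week 3 was not among these 10, and it differed in the levels of the Hox genes. Of the 26 Hox genes tested it was the highest of 38 arrays for 4 (15.4%, against 5.71% of all genes tested) and the lowest for 2 (7.69%, against 9.71%). Hoxc9, the white fat marker, was at -0.28 and well above background, whereas on the other arrays it had a median of -6.23, a highest value of -1.59 and was above background on 6 of 37. Hoxd8, a trunk gene, was at 0.35 against -2.85 to -0.42. Hoxd9 was at -1.46 against -5.91 to -1.91, and Hoxa7 was at 3.47 against 0.72 to 3.16.

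The lowest 2 were neighbours in HoxA. Hoxa5, which is needed for the lower neck and the lung, was at -2.52 against -1.70 to 0.72 on the other 37 arrays. Hoxa4 was at -1.96 against -1.81 to 0.45. In HoxB, Hoxb8 (-0.11) was the second highest value and Hoxb9 (-1.06) the third, and Hoxb5 (0.18) and Hoxb7 (1.04) lay above the medians of the other arrays (-0.18 and 0.54). Hoxb6, between these genes in the cluster, lay below the median of the other arrays (-0.17 against 0.89). Hoxb4 (-1.24 against -1.22) and Hoxa9 (-2.88 against -3.05) lay near those medians. Of the other 37 arrays 27 were dim, whereas this array was bright. Hoxb4, Hoxb5, Hoxb6 and Hoxb7 were all higher on it than on any of the other 10 bright arrays, where Hoxb6 ran from -2.21 to -0.74.

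**Figure D3:**
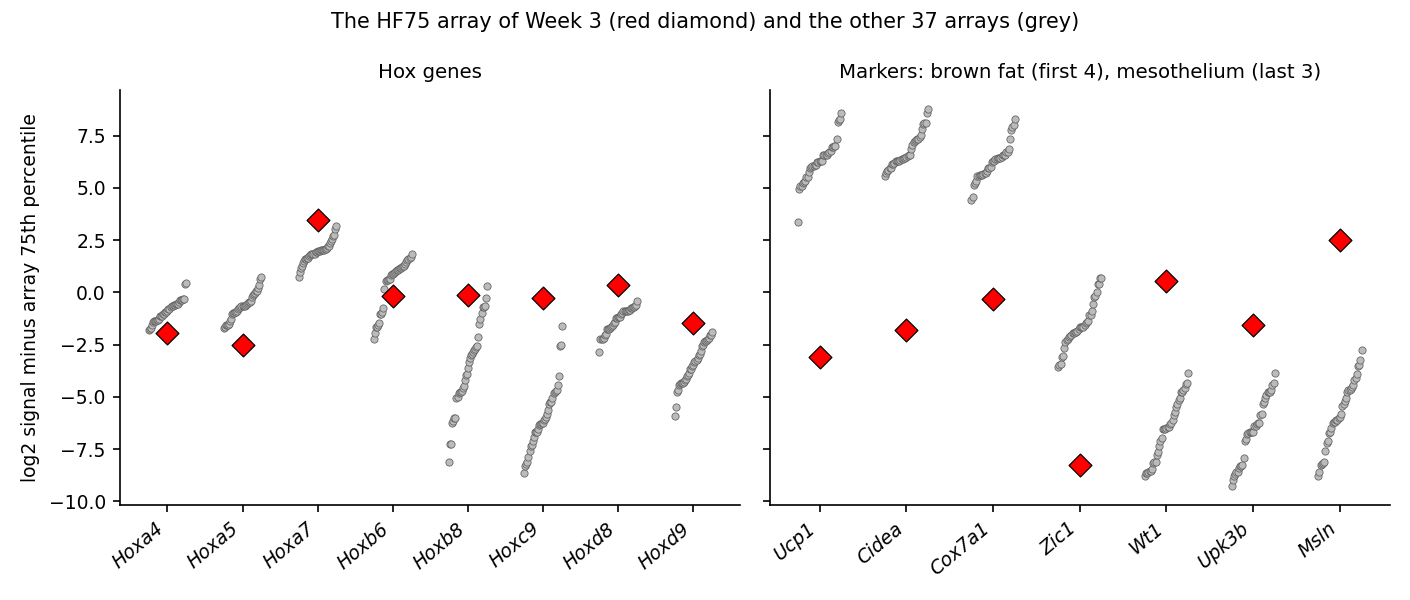
Level (log2 signal minus the array's 75th percentile) of 8 Hox genes and 7 marker genes on the HF75 array of Week 3 (red diamond) and on the other 37 arrays (grey points, in rising order within a gene). The diamond lies above all grey points for Hoxa7, Hoxc9, Hoxd8, Hoxd9, Wt1, Upk3b and Msln, and below them for Hoxa4, Hoxa5, Ucp1, Cidea, Cox7a1 and Zic1; levels of different genes are not comparable.

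Parts of the Hoxc9 and Hoxa7 probes (bases 16 to 45, in lower case with no part marked) are shown. Both genes had their highest level of 38 arrays on this array, Hoxa7 by a small margin. Each probe shared fewer than 12 bases in a row with the probe of any other Hox gene. Binding of RNA of other Hox genes was not tested.
Hoxc9: tgtgggagggttaagtgttgagaaattggt
Hoxa7: gtctttaagagactcattgattttagttac

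Genes of the retinoic acid pathway, which switches on Hox genes in the embryo, were looked at on this array. Aldh1a1, Aldh1a2 and Aldh1a3, the enzymes that make retinoic acid, and Cyp26b1, which breaks it down, were each at their highest of 38 arrays there. These were 4 of 14 genes of the list, of which 6 were detected on at least 19 arrays, and 5.71% of all genes tested were highest on this array. Aldh1a1 exceeded the next array by little (2.27 against 2.19). Aldh1a3 was at 1.85 against a highest value of -0.27 elsewhere, and Aldh1a2 was at -1.01 against -1.17. None of the other 10 was at its highest there: 8 of them were not well above background on this array, and the receptor genes Rarb (0.25) and Rarg (-4.27) lay within the range of the other arrays. Cdx1, Cdx2 and Cdx4, which act on posterior Hox genes in the embryo, were detected on 2, 0 and 2 arrays.

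The levels of several Hox genes differed between bright and dim arrays. A reading at background is lower on a bright array by the scaling itself, so this comparison was limited to the 10 Hox genes that were well above background on all 38 arrays. Without the HF75 array of Week 3, 2 of the 10 were lower on all 10 bright arrays than on any of the 27 dim arrays (8.46% of all genes on all 38 arrays), and 1 was higher (10.4%). Hoxb5 was at -3.57 to -1.33 on the bright arrays and at -1.18 to 0.995 on the dim ones. Hoxb6 was at -2.21 to -0.74 and at 0.16 to 1.84. Hoxc6, a trunk gene, went the other way, at -0.01 to 1.11 on bright arrays and at -2.48 to -0.63 on dim ones. With the HF75 array of Week 3 counted among the bright ones, Hoxb6 was still lower without overlap (1 of 10, against 3.3%) and Hoxc6 higher (1 of 10, against 0.7%), and Hoxb5 overlapped.

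The same comparison was made inside the diet groups. Within each of LFC (4 bright, 6 dim arrays), HFC (2 and 8) and HF20 (4 and 2), all bright arrays were below all dim arrays for 3 of these 10 Hox genes, Hoxb2, Hoxb5 and Hoxb6 (against 12.3% of all genes on all 38 arrays). For Hoxc6 all bright arrays were above (1 of 10, against 16.9%). Since Hoxb5, Hoxb6 and Hoxc6 did not overlap over all these arrays, they could not overlap within a group. The groups thus add Hoxb2 alone. The median over the 10 Hox genes of the bright minus dim difference was -0.87, and over all genes on all 38 arrays -0.018. All 5 endothelium markers were well above background on each of these arrays, and the mean level of the list ran from 1.16 to 2.78 on the 10 bright arrays and from 3.57 to 5.03 on the dim ones. The list of red blood cell (erythroid) genes did not overlap either, at -1.21 to 0.16 on the bright arrays and 0.43 to 3.69 on the dim ones. Of its 6 genes, 4 were detected on at least 19 arrays. Zic1, 1 of the 3 brown depot markers, was higher on bright than on dim arrays in each of these 3 groups. Lhx8 overlapped in HFC. Epsti1 was lowest of 38 on a bright array (LFC at Week 3, -3.94) and highest on a dim one (HFC at Day 14, 0.23). The mean level of the 3 markers overlapped, at -2.05 to -0.47 on the 10 bright arrays and -3.85 to -1.79 on the dim ones. The part of these markers or of brightness in the Hox levels was not tested, and in bulk tissue fewer cells of a type and less RNA per cell cannot be told apart.

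**Figure D4:**
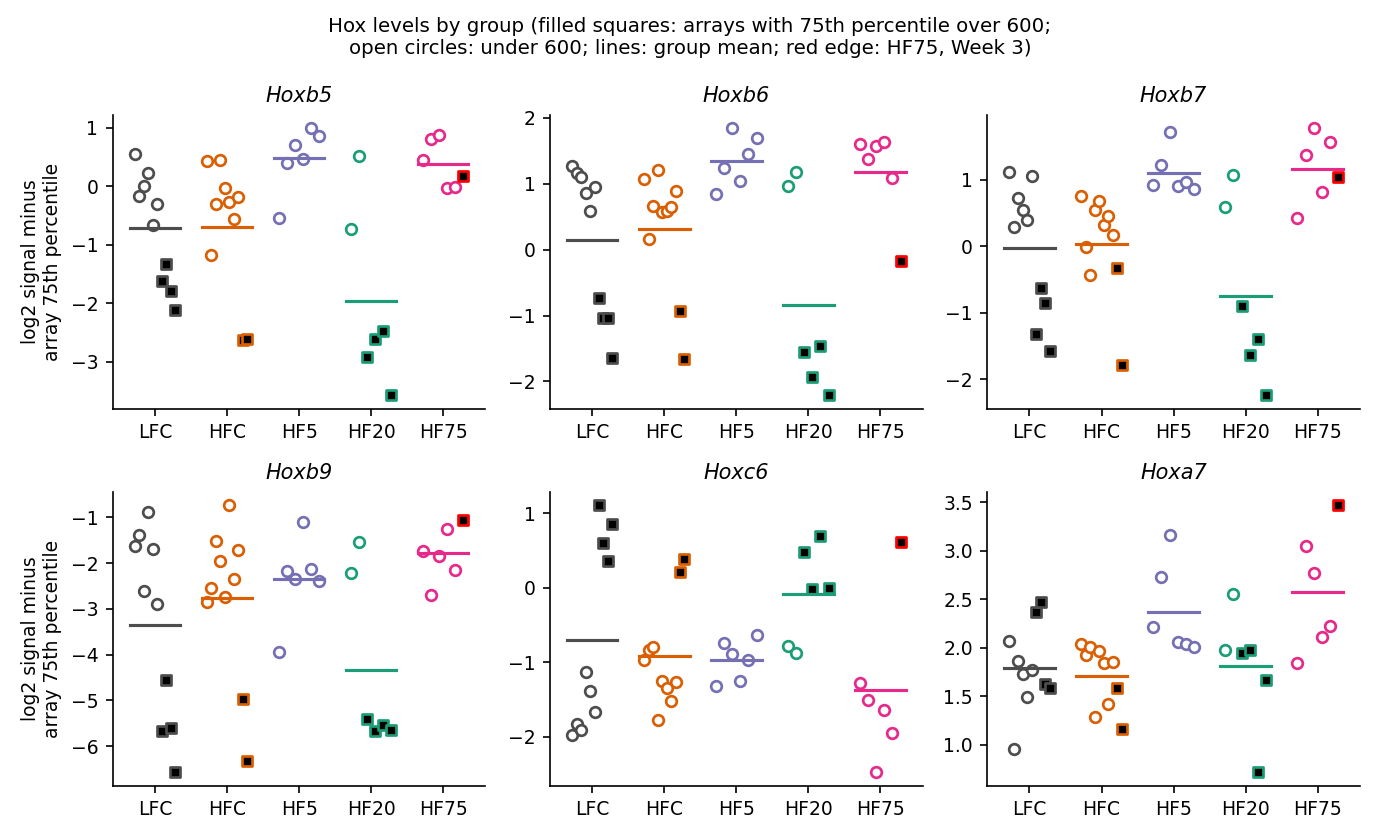
Level (log2 signal minus the array's 75th percentile) of 6 Hox genes on each array by group, with filled squares for arrays whose 75th percentile was over 600, open circles for the others, a line for the group mean and a red edge for HF75 at Week 3. In LFC, HFC and HF20 the filled squares lie below the open circles for Hoxb5, Hoxb6 and Hoxb9 and above them for Hoxc6, and HF5 holds no filled square. Hoxb9 was well above background on 33 of 38 arrays, so it is outside the comparison of bright and dim arrays, and readings at background are lower on bright arrays by the scaling.

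The diet itself moved no Hox gene past the threshold. In HFC against LFC over 10 time points, 0 of 26 Hox genes passed an adjusted p of 0.05 (limma, 0% of genes tested), and 0 had an unadjusted p under 0.05 (6.98% of genes tested). The smallest p belonged to Hoxa6, with a difference of 0.99 ± 0.45 (SE, 20 arrays, adjusted p = 0.643 by limma), and HFC was higher at 7 of 10 time points. Over weeks 3 to 18 alone, 0 of 26 passed (0.00915% of genes tested), and 1 had an unadjusted p under 0.05 (14.5% of genes tested).

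That gene was Hoxb13. Its level on the 6 LFC arrays had a lowest value of -8.51, a median of -6.73 and a highest of -6.13, and on the 6 HFC arrays these were -7.31, -5.25 and -0.37. It was well above background on 0 of the LFC arrays and on 2 of the HFC arrays, Weeks 12 and 18, and the groups overlapped, although HFC was higher at 6 of 6 weeks. HFC at Week 12 was also the array with the most gene names detected. The fitted difference was 2.74 ± 0.91 (SE, adjusted p = 0.334 by limma). Since most of these readings were at background, no fold is given.

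The median difference of HFC against LFC in weeks 3 to 18 was 0.12 over the Hox genes and 0.08 over all genes tested. Over days on the diet, in LFC and HFC together, 0 of 26 Hox genes passed (1.63% of genes tested), and 4 had a positive slope at an unadjusted p under 0.05 (21.3% of genes tested, in either direction). These were Hoxa6, Hoxb4, Hoxb8 and Hoxc10, with slopes of 0.0130 to 0.0221 log2 units per day and adjusted p values of 0.102 to 0.234. For the product of diet and day, 0 of 26 passed (0% of genes tested), and 2 had an unadjusted p under 0.05 (15.3% of genes tested), Hoxb13 and Hoxb4, the latter a gene of the neck that also acts in blood stem cells.

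Hoxb4 reached 2.68 in HFC at Week 18 and 0.98 in LFC at Week 18, its 2 highest values. On the 10 LFC arrays it otherwise ran from -3.43 to -0.63, and on the other 9 HFC arrays from -2.63 to 0.18. The 4 lowest LFC values were those of the 4 bright LFC arrays, and the 2 lowest HFC values those of the 2 bright HFC arrays. Without the 11 bright arrays Hoxb4 had a slope of 0.0159 log2 units per day with an adjusted p of 0.0453 (limma). It was the only Hox gene called there (1 of 26), a share close to the 3.79% of genes tested. Of 22 settings for this slope, Hoxb4 passed in 1, and its adjusted p reached 0.885 (limma) in another.

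With Kal-1, no Hox gene passed the threshold against HFC at any dose. In HF5 against HFC, 0 of 26 passed (0% of genes tested) and 2 had an unadjusted p under 0.05 (5.45% of genes tested). Hoxa7 was higher by 0.66 ± 0.27 and Hoxb7 by 1.20 ± 0.43 (SE, adjusted p = 0.822 for both by limma), and each was higher in HF5 at 6 of 6 weeks. In HF75 against HFC, 0 of 26 passed (0% of genes tested) and 4 had an unadjusted p under 0.05 (9.14% of genes tested), again with Hoxa7 (0.87 ± 0.27) and Hoxb7 (1.27 ± 0.43), beside Hoxd8 (0.75 ± 0.34) and Hoxa9 (-1.03 ± 0.36), all at an adjusted p of 0.538 or 0.539 (limma). Both doses were set against the same HFC arrays. Without the HF75 array of Week 3 the 4 differences were 0.67, 1.07, 0.55 and -1.20, and Hoxd8 then had an unadjusted p of 0.124.

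The levels behind Hoxa7 overlapped between groups. Its lowest, median and highest values were 1.16, 1.88 and 2.04 on the 6 HFC arrays of weeks 3 to 18, 2.01, 2.14 and 3.16 on the HF5 arrays, and 1.84, 2.50 and 3.47 on the HF75 arrays. The lowest HF5 value thus lay within the HFC range, and the HF75 array of Week 3 gave the highest value. On the HF20 arrays the values were 0.72, 1.96 and 2.56.

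HF20 had the lowest levels of many Hox genes, and 4 of its 6 arrays were bright. In HF20 against HFC, 0 of 26 Hox genes passed (0% of genes tested), and 8 had an unadjusted p under 0.05 (30.8%, against 33.2% of genes tested), so this share was no higher than among all genes. Lower in HF20 were 7 of them, Hoxa6, Hoxb4, Hoxb5, Hoxb6, Hoxb8, Hoxb13 and Hoxd4, with differences of -2.63 to -1.17, and Hoxa4 was higher by 0.66. Their adjusted p values ran from 0.118 to 0.148. The median difference was -0.70 over the Hox genes and -0.20 over all genes tested.

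Hoxb4 was lower by 2.02 ± 0.63 (SE, adjusted p = 0.118 by limma) and lower at 5 of 6 weeks. Without Week 3, where the HFC array was also bright, its difference passed with an adjusted p of 0.0381 (1 of 26 Hox genes, against 16.4% of genes tested). Without the 11 bright arrays Hoxb5 (0.13), Hoxb6 (0.38) and Hoxd4 (0.11) were no longer lower in HF20. Hoxb13 was well above background on 0 of 6 HF20 arrays and on 2 of 6 HFC arrays, and Hoxb8 on 2 of 6 and 5 of 6, so part of their differences lies between readings at background.

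The 3 doses differed from each other in 5 of 26 Hox genes (19.2%, against 13.4% of genes tested). In the moderated F test of limma over HF5, HF20 and HF75, the called genes were Hoxb5, Hoxb6, Hoxb7, Hoxa9 and Hoxd8. The first 3 lie next to each other in the HoxB cluster on chromosome 11 and act in the lower neck and upper trunk. Hoxb5 had a lowest, median and highest level of -0.54, 0.59 and 0.995 on the HF5 arrays, -3.57, -2.54 and 0.51 on the HF20 arrays, and -0.03, 0.32 and 0.88 on the HF75 arrays. The 4 lowest HF20 values were those of the bright arrays, and both dim HF20 arrays (-0.74 at Week 9 and 0.51 at Week 18) lay within or close to the range of the other doses.

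Hoxb5 was higher in HF75 than in HF20 by 2.35 ± 0.56 (SE) and lower in HF20 than in HF5 by 2.45 ± 0.56, with an adjusted p of 0.0343 by limma. Hoxb6 had medians of 1.35, -1.51 and 1.47 on the HF5, HF20 and HF75 arrays, and HF75 was above HF20 by 2.02 ± 0.51. Hoxb7 had medians of 0.94, -1.15 and 1.21, with a difference of 1.92 ± 0.43. Both had the same adjusted p of 0.0343. HF75 was above HF20 at 6 of 6 weeks for Hoxb5 and Hoxb6 and at 5 of 6 for Hoxb7, while HF75 and HF5 differed by -0.17 to 0.07 in the 3 genes.

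These differences between HF75 and HF20 were smallest at Weeks 9 and 18. At Weeks 9 and 18, where no dose array was bright, HF75 minus HF20 was 1.19 and 0.37 for Hoxb5, 0.65 and 0.39 for Hoxb6, and -0.17 and 0.70 for Hoxb7. At Week 3 the HF20 and the HF75 array were both bright (75th percentile 857 and 871), and the difference was 3.76 for Hoxb5 and 3.29 for Hoxb7. Hoxb6 was at -2.21 in HF20 and at -0.17 in HF75 there. These values of Week 3 rested on the HF75 array that went against its label. Without that array no Hox gene passed (smallest adjusted p = 0.0643 by limma), and with the brightness as a covariate or without the 11 bright arrays none did either. Brightness and dose cannot be told apart here, since HF20 had 4 bright arrays, HF75 had 1 and HF5 had 0.

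**Figure D5:**
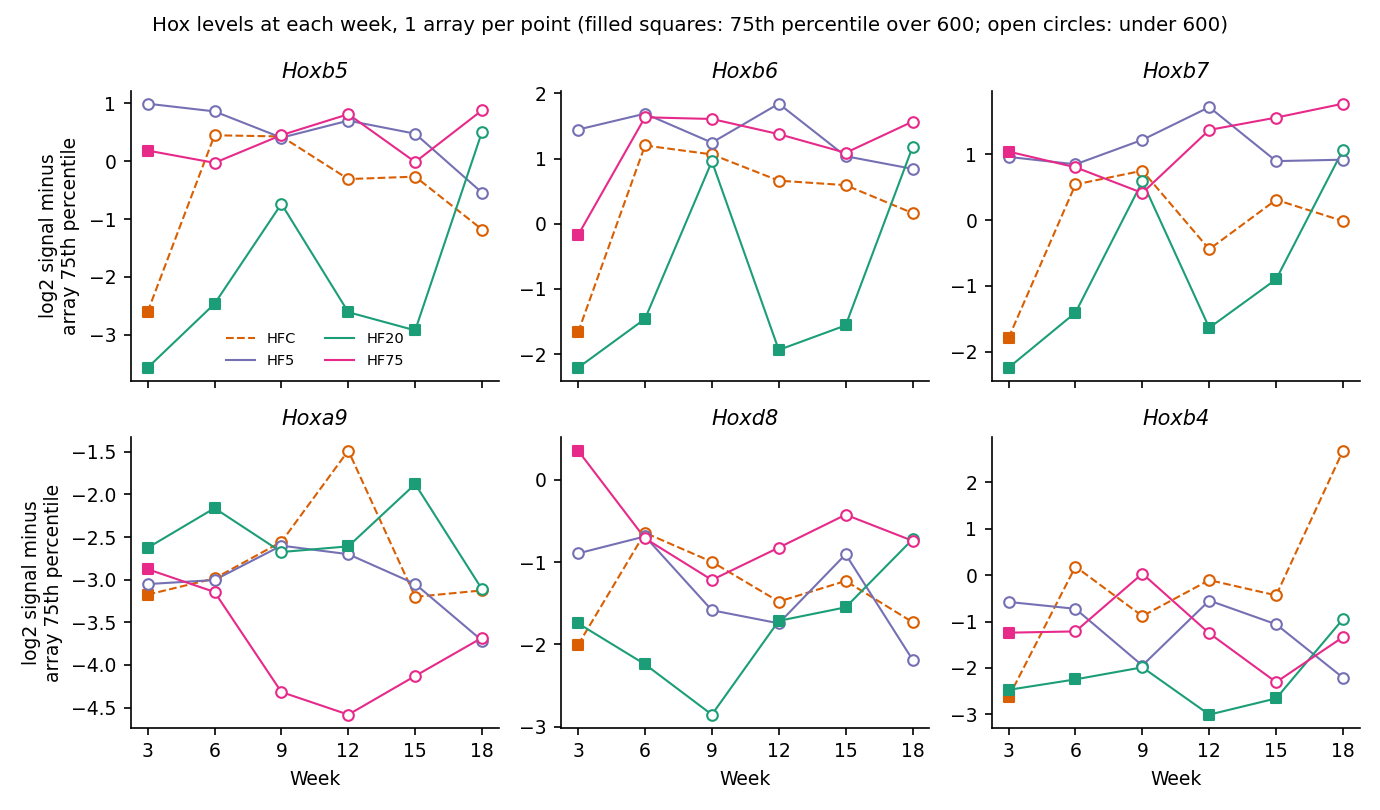
Level (log2 signal minus the array's 75th percentile) of 6 Hox genes at weeks 3 to 18 in HFC, HF5, HF20 and HF75, 1 array per point, with filled squares for arrays whose 75th percentile was over 600. For Hoxb5, Hoxb6 and Hoxb7 the HF20 line is low at the filled squares of Weeks 3, 6, 12 and 15 and rises to the other lines at the open circles of Weeks 9 and 18; Hoxa9 is lowest in HF75 from Week 6 to Week 15.

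Hoxa9, a gene of the lower trunk that is best known from blood cells, ran the other way, with HF75 lowest. Its probe shared a run of 22 bases with a Hoxb3 probe that was not used for the levels of Hoxb3, and whether RNA of other Hox genes binds it was not tested. Its lowest, median and highest levels were -3.71, -3.03 and -2.60 on the HF5 arrays, -3.11, -2.62 and -1.88 on the HF20 arrays, and -4.58, -3.91 and -2.88 on the HF75 arrays. HF75 was below HF20 at 6 of 6 weeks, by 1.28 ± 0.36 in the fit (SE, adjusted p = 0.0478 by limma), and its ranges overlapped those of the other doses. It was well above background on 5, 4 and 2 of the 6 arrays of HF5, HF20 and HF75, so part of the HF75 values are dim readings. At Weeks 9 and 18 HF75 minus HF20 was -1.64 and -0.57. With normexp background correction the difference was 0.52, in the opposite direction.

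Hoxd8 was higher in HF75 than in HF20 by 1.21 ± 0.34 (SE, adjusted p = 0.0482 by limma) and higher at 5 of 6 weeks. Its medians were -1.25, -1.73 and -0.73 on the HF5, HF20 and HF75 arrays. Without the HF75 array of Week 3 it did not pass, with an adjusted p of 0.105. Bases 16 to 45 of the Hoxb6 and Hoxb7 probes, with no part marked, are shown because these genes lie side by side and both differed among the doses, while their probes share no run of 12 bases with another Hox gene.
Hoxb6: tccatgtcccccgtgcacggttcaatggta
Hoxb7: tttgtaaaatcttgctgttttgtaagccct

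A further 11 Hox genes had an unadjusted p under 0.05 for the differences among doses, which made 16 of 26 (61.5%, against 37.3% of genes tested). Of these, Hoxc9 was well above background on 0 of 6 HF20 arrays and on 2 of 6 HF75 arrays (-0.28 at Week 3 and -1.59 at Week 12), with an adjusted p of 0.0982 (limma). The larger of both values was that of the array that went against its label. Hoxc6 was lower in HF75 than in HF20 by 1.29 and Hoxa4 by 0.99, and the other 8 were higher in HF75 than in HF20.

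Genes of proteins that work with Hox genes were counted in the same way, where 59.8% of all gene names were on at least 19 arrays. Of the 9 Hox cofactors (the Pbx, Meis and Pknox genes, whose proteins bind DNA together with Hox proteins), 6 were on at least 19 arrays. Of the 23 Polycomb subunits, which keep silent Hox genes shut, 21 were, and 15 of them on all 38 arrays. Of the 9 genes on the array of the trithorax and H3K27 demethylase list, which keep Hox genes active, 9 were. Of the 8 noncoding transcripts of the clusters only Hoxa11as had a probe, and it was above background on 2 arrays.

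In the comparisons with diet, few of these genes passed. In HFC against LFC and in each dose against HFC, 0 genes of the 5 lists passed. Among the doses, 4 of 22 tested Polycomb genes passed (13.4% of genes tested; Jarid2, Cbx6, Mtf2 and Rnf2, with adjusted p values of 0.0343 to 0.0464 by limma), beside 0 of 8 cofactors, 1 of 9 trithorax genes (Psip1), 1 of 6 retinoic acid genes (Cyp26b1) and 1 of 9 genes that flank the clusters (Snx10). Jarid2, which brings Polycomb proteins to DNA, was higher in HF75 than in HFC by 0.61 ± 0.23 (SE, adjusted p = 0.538 by limma). In HF75 against HFC, 6 of 22 Polycomb genes had higher and 1, Ring1, lower values at an unadjusted p under 0.05 (9.14% of genes tested in either direction), with adjusted p values of 0.538 to 0.545. Without the HF75 array of Week 3 these were 3 and 1 (6.04% of genes tested), Jarid2 was higher by 0.64 ± 0.25, and among the doses 0 genes of the lists passed, as was the case for all genes. Cyp26b1 and Cbx6 had their highest level of 38 on that array. In weeks 3 to 18 Ezh2, the Polycomb enzyme that methylates histone H3, had a difference of -0.77 ± 0.28 in HFC against LFC (SE, adjusted p = 0.334 by limma).

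Of the genes that flank the Hox clusters 9 were tested, and 4 of them had higher values in HF20 than in HFC at an unadjusted p under 0.05, against 33.2% of genes tested in either direction (Snx10, Skap2 and Hibadh beside HoxA, and Mtx2 beside HoxD, adjusted p values of 0.119 to 0.130 by limma), and the median difference over the 9 was 0.58. The 9 include neighbours of all 4 clusters. Over the tested Hox genes the median was -0.02 in HoxA, -1.39 in HoxB, 0.41 in HoxC and -0.46 in HoxD. Most HF20 arrays were bright. The differences between these medians were not tested.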

How the data were processed

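Total RNA of brown adipose tissue was labelled with Cy3 and hybridised to a custom mouse array of 60-base probes, with 1 colour per array. Groups, time points and doses were taken from the sample labels. The deposited scanner files give intensity per spot, which the authors obtained with Agilent Feature Extraction (version 9.1 in the submitters' notes, 10.5.1.1 in the file headers) and which is corrected for background but not scaled between arrays. The 4 Week 9 files other than LFC hold values of 3 digits. The authors also deposited a table of log2 ratios, normalized in GeneSpring GX, of each array to LFC at its time, which was used only as an alternative; its Week 15 ratios bore no relation to those of the scanner files. The array design is built on mm9 per the file headers, and no coordinates were used.

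Levels are log2 of the processed signal less the array's own 75th percentile. For each gene name the probe of highest mean stood in. A gene was tested if 6 or more of 38 arrays had it well above background, which took 21862 genes including 26 Hox genes; 13 Hox genes were described by detection alone. Comparisons were fitted in R 4.3.3 with limma 3.58.1 (lmFit and eBayes), two-sided, with the time point as a block and Benjamini-Hochberg adjustment over all genes tested. HFC against LFC used 20 arrays, the doses 30, and the trend over days the diet in place of the block. Days on the diet were 14 plus 7 per week. Arrays of the same time point share the day of sampling by their labels and, with a few exceptions, the scan day, and the labels give no litter or cage. The steps were tested on simulated data.

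The Hox genes, the lists and the tests were chosen with earlier results of these data known. Every Hox gene could be named; per comparison those with an unadjusted p under 0.05 were named, or the smallest p values. Genes of the lists were named when detected on at least 19 arrays, at most 4 per list and comparison. Precision rests on how many arrays a group has and on signal over background. The alternatives were other normalizations, background corrections, probe rules, filters, a floor, covariates, random blocks for slide (statmod 1.5.0) and scan day, and leaving out time points. Leaving out single arrays and the 11 bright arrays was added after the data were seen. Order along the clusters and chromosomes follow RefSeq, and sequences are those of the array's probes. The values of 1 Hox gene and the sequences of some probes are not reported here.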

Additional observations from a re-analysis of the deposited data

Results flagged for a closer look

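In 7 combinations of a tested Hox gene and a group, 6.67% of those examined, 1 array lay far from the others of its group by Dixon's test at 95%, where chance gives about 1 in 20. Hoxb4 in HFC at Week 18 (2.68, next value 0.18) and Hoxa5 in HFC at Week 0 (0.72, next value -0.41) were the highest of 10, and Hoxb7 in HFC at Week 3 (-1.79, on a bright array) was the lowest of 10. Of 6 arrays, Hoxa6 in HF75 at Week 15 (-5.10, not well above background) and Hoxb2 in HF5 at Week 18 (-0.18) were the lowest. On the HF75 array of Week 3, Hoxb6 (-0.17) was the lowest and Hoxc4 (0.89) the highest of 6. The part of brightness or tissue in these values was not tested.

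The 5 Hox genes that differed among the doses by the F test of limma are the only Hox genes with a tested difference between groups: HF75 minus HF20 was 2.35 for Hoxb5, 2.02 for Hoxb6, 1.92 for Hoxb7, -1.28 for Hoxa9 and 1.21 for Hoxd8.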

How the results depend on the processing

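The number of Hox genes that differed among the doses was the least stable result. It was 5 of 26 as reported (13.4% of genes tested), 0 with normexp background correction, with no filter on dim genes, with brightness as a covariate, without the HF75 array of Week 3 and without the 11 bright arrays, 3 with a skeletal muscle covariate (3.15% of genes tested), 3 without the time point block (Hoxb5, Hoxb6 and Hoxb7; 5.66%), 9 with a floor at the lowest signal above background (19.2%) and 13 with the slide as a random block (29.6%; consensus correlation 0.46). Where the count was 0, 0 of all genes tested passed. Leaving out single weeks gave 0 to 9, with 0 without Week 3, Week 6, Week 12 or Week 15 and 9 without Week 18 (24.6% of genes tested). For HF20 against HFC leaving out single weeks gave 0 to 1 (Hoxb4 without Week 3). The trend over days gave 1 gene without the 11 bright arrays. Detection on at least 90% of arrays, in place of at least 19, left 12 genes. Signs turned for Hoxa4 in HF20 against HFC with the mean of all probes (-0.069), for Hoxb5 (0.13), Hoxb6 (0.38) and Hoxd4 (0.11) without the 11 bright arrays, and for Hoxa9 among the doses with normexp (0.52). The causes were not tested. Apart from leaving out time points, the other 106 recomputed counts were equal to the reported ones or within 1.5 times of them. These include counts of 0 that stayed at 0, since every fitted comparison except that among the doses had a reported count of 0. Removing the block changed no count in the other comparisons, where it was 0 as well. Readings of groups 10 to 13 were mostly at background, and whether signal strength limited their detection was not tested. These groups had a median of 1 detected gene on bright and on dim arrays, with at most 2 and 7.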
